A study of Homo sapiens with 29 samples.

Results

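The protein-coding genes of the cytosolic large ribosomal subunit were followed in HEK293 cells through a knockdown of hnRNPA1 and through lists of RNA windows recovered with hnRNPA1. Members were the genes of the deposited gene table whose symbol is RPL or RPLP followed by digits and an optional A, L or X, with pseudogenes left out. This rule found 47 of 16382 genes, and it used no measured value. All 47 passed the filter on low values and entered the test. RPL3L and RPL10L, which the rule would also take, were not analysed here.

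HEK293 cells are an established line from human embryonic kidney. The protein hnRNPA1 binds RNA, regulates splicing in the nucleus and also enters the cytoplasm. Of 29 samples in the series, 8 measured total RNA and 21 measured RNA recovered by immunoprecipitation (RIP). The total RNA came from cells with control siRNA (n = 4) and from cells with siRNA against hnRNPA1 (n = 4), with no allele or other agent named for either. The RIP libraries used an hnRNPA1 antibody or normal IgG on whole-cell lysate (3 hnRNPA1 and 3 IgG), cytosol (4 and 4) and mitochondria (4 and 3). The labels name 1 knockdown condition with no second siRNA and no rescue, so off-target effects of the siRNA and effects of losing hnRNPA1 cannot be told apart. The labels do not tie the libraries to separate cultures, so the p-values rest on a spread that may be technical. Markers of fibroblasts, endothelial cells and lymphocytes were low, with 3 of 10 in the table and means from 10.3 to 48.9 (LUM) normalised reads.

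The large subunit joins amino acids at its peptidyl transferase centre, lets the growing chain leave through a tunnel, and recruits elongation factors through a flexible stalk. Its proteins are made in matched amounts, and their mRNAs typically begin with a cytosine followed by a run of pyrimidines, the 5′ terminal oligopyrimidine (TOP) tract, through which growth signalling controls their translation. Several introns of these genes carry small nucleolar RNAs (snoRNAs), which guide modification of ribosomal RNA.

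The TOP tract was looked up first, because it is the sequence feature that these mRNAs are known to share. RefSeq starts (GRCh38.p14) were found for 38 of the 47 genes. A tract was counted as a C at the first transcribed base followed without a break by C or T, at least 5 bases in all, on the transcribed strand. Where a gene had several starts, the longest tract was taken. It was present in 28 of 38 members (73.7%), against 5.14% of the 27305 genes of the promoter table and 7.28% of the tested genes found there. The small-subunit genes had it in 18 of 25 (72.0%). Tracts ran from 5 to 19 bases. The 8 starts shown were chosen because the values of these genes are described below: the first 4 belong to genes with the lowest fold changes that had a tract, then come the longest tract, the start of a stalk gene whose level was higher on average in the knockdown, and 2 starts without a tract of 5. Each line holds 10 bases before the start and 20 from it, read 5′ to 3′, with the run that begins at the start in capitals.
RPL34: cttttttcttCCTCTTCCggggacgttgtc
RPL26: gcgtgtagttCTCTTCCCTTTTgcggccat
RPL13: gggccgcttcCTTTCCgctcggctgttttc
RPL35A: gggcctcgtcCTTCTCTTaccgccatcttg
RPL39: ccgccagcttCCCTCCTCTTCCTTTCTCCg
RPLP1: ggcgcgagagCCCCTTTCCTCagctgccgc
RPL3: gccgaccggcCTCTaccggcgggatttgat
RPL17: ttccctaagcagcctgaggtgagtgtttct

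The RPL34 stretch lies at chr4:108620566-108620595 on the plus strand and RPL26 at chr17:8383174-8383203 on the minus strand. RPL13 lies at chr16:89560672-89560701 (plus) and RPL35A at chr3:197950180-197950209 (plus). RPL39 lies at chrX:119791611-119791640 (minus), RPLP1 at chr15:69452808-69452837 (plus), RPL3 at chr22:39319604-39319633 (minus) and RPL17 at chr18:49492446-49492475 (minus). Besides RPL3 and RPL17, the table starts of RPL4, RPL6, RPL9, RPL10A, RPL15, RPL19, RPL27 and RPL32 had no tract of 5, which says only that these letters do not stand at the listed start. In the knockdown comparison described next, the median log2 fold change was -0.17 in the 28 genes with a tract and -0.17 in the 10 without.

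The knockdown comparison asked which RNAs differ in level between cells given siRNA against hnRNPA1 and cells given control siRNA. The transcript targeted by the siRNA, HNRNPA1, had 18640, 20400, 18610 and 19350 normalised reads in the controls (libraries 1 to 4, the order used throughout) and 6506, 6413, 7185 and 5306 after knockdown. All knockdown values were below all controls, and 33.0% of the control mean remained (log2 fold change -1.61, SE 0.09, limma adjusted p = 2.2e-06). The 8 libraries totalled 17968459 to 20935045 normalised reads, and a rough estimate from the steps between low values gave 16600000 to 22100000 sequenced reads per library. In bulk RNA, a change in some of the cells and a smaller change in every cell cannot be told apart.

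Large-subunit mRNAs were slightly lower on average in the knockdown, by less than the span between control libraries, and only RPL34 fell at an adjusted p under 0.05. Of the 47 genes, 43 had a log2 fold change under 0, against 49.2% of all genes tested, and the median was -0.17 (range -0.39 to 0.06) where the median of all genes was 0.0. The 1 call, 1 gene of 47, compares with 1.65% of all 15267 tested genes called in either direction, 0.976% called lower and 0.675% called higher (limma, Benjamini-Hochberg over all genes). At an unadjusted p under 0.05, 12 members were lower and none higher, against 9.7% of all genes lower and 19.2% in either direction. These genes vary together between libraries, so the count of genes below 0 is not a count of independent measurements.

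The common level of the genes differed between the control libraries. Relative to its own mean over the 8 libraries on the log2(value + 1) scale, the median member stood at 0.29, 0.15, -0.09 and 0.02 in the controls and at -0.10, 0.03, -0.11 and -0.15 in the knockdown. Control library 1 was thus the highest, and control libraries 3 and 4 lay within the range of the knockdown libraries. Control library 1 held the highest value of 41 of the 47 genes, and knockdown library 4 the lowest value of 25. In 34 genes control libraries 1 and 2 both lay above 3 and 4, a pattern that 21.1% of all tested genes had. The median gene of the whole table moved by at most 0.01 in any library.

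Leaving out control libraries 1 and 2, a choice made after these values were seen, brought the median of the members from -0.17 to -0.02. Of the 47 genes 26 were then below 0, 4 had an unadjusted p under 0.05 and 0 were called by limma. Over all 15267 tested genes, 1964 had an unadjusted p under 0.05 and 19 were called. Leaving out knockdown libraries 3 and 4 instead gave a median of -0.11, with 41 of 47 below 0. Of the members 9 then had an unadjusted p under 0.05 and 0 were called, against 2266 and 94 of all tested genes. Leaving out the controls in which the genes were highest must bring the median nearer to 0. The median of -0.02 is therefore a description and no independent test. The share of all normalised reads that fell in the 47 genes was 3.85%, 3.57%, 3.30% and 3.57% in the controls and 3.11%, 3.27%, 3.25% and 3.30% in the knockdown. The groups met at 3.30% in control library 3 and knockdown library 4. With mitochondrially encoded transcripts left out of the total, the shares were 5.04%, 4.59%, 4.28% and 4.60% against 4.08%, 4.18%, 3.99% and 4.02%, and the groups did not overlap. Mitochondrial transcripts made up 23.6%, 22.3%, 22.9% and 22.4% of the reads in controls and 23.7%, 21.9%, 18.6% and 18.0% in the knockdown. With them left out and the libraries rescaled, the members' median log2 fold change was -0.17, with 43 of 47 below 0. In that fit 16 members had an unadjusted limma p under 0.05 and 0 were called, against 2497 and 93 of all genes. The part of mitochondrial transcripts in the difference was not tested further.

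**Figure D1:**
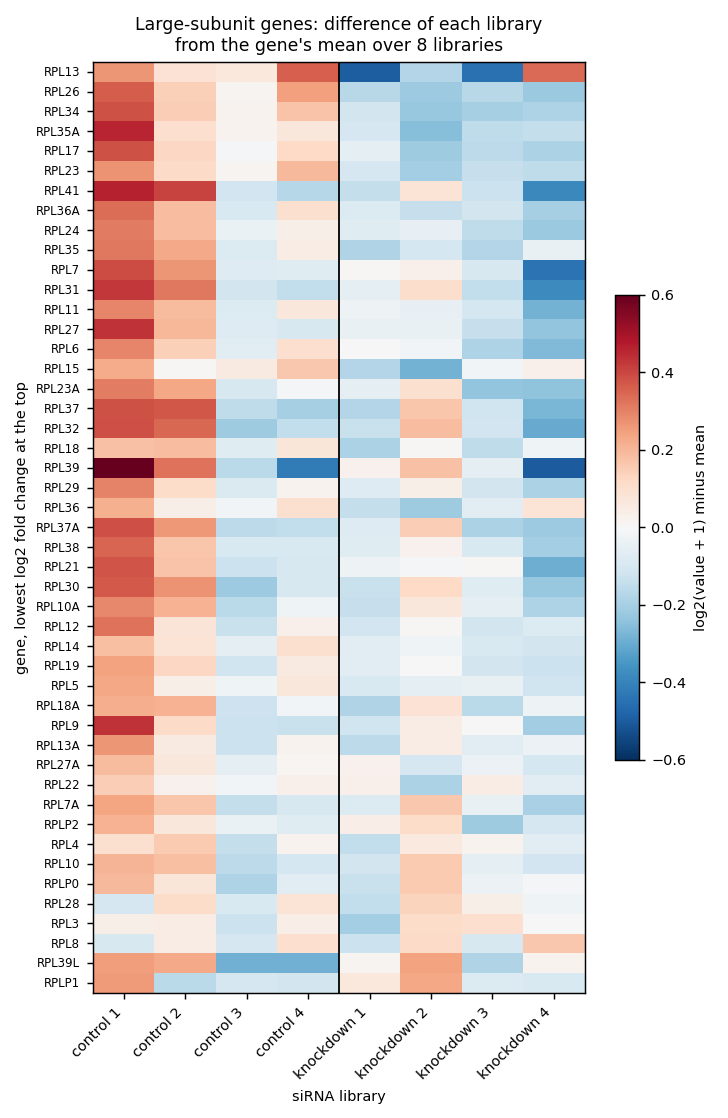
Difference of each siRNA library (columns, 4 control and 4 knockdown) from the gene's mean over the 8 libraries, in log2(value + 1), for the 47 large-subunit genes (rows), ordered from the lowest log2 fold change at the top. Control library 1 is red in nearly every row, control library 3 is pale blue in most, and the rows at the bottom, from RPLP0 to RPLP1, show no split between the groups.

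RPL34, a large-subunit protein with no bacterial counterpart, stood at 7660, 6522, 5971 and 6623 normalised reads in the controls and at 5443, 5024, 5115 and 5164 in the knockdown. Every knockdown library lay below every control, and the knockdown libraries differed little from one another. The mean fell from 6694 ± 705 to 5187 ± 181 (SD, n = 4 each), or 77.5% of control, with a log2 fold change of -0.36 (SE 0.08, limma adjusted p = 0.045). The call is close to the threshold: in 9 of 14 alternative fits the adjusted p lay between 0.0529 and 0.124, and the log2 fold change between -0.30 and -0.42 in all 14.

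The next genes in order of fold change showed the same size of difference without passing the threshold. RPL26, which sits at the rim of the exit tunnel, stood at 34020, 29160, 26730 and 31380 in controls and at 23590, 22730, 23590 and 22670 in the knockdown. The groups did not overlap, and the knockdown mean was 76.3% of control (log2 fold change -0.38, SE 0.10, limma adjusted p = 0.066). RPL35A, a gene mutated in Diamond-Blackfan anaemia, stood at 13620, 10630, 10040 and 10400 against 9244, 8310, 8910 and 8975. Its groups did not overlap either, but control library 1 stood well above the other controls (log2 fold change -0.32, SE 0.10, limma adjusted p = 0.10).

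RPL13 had the lowest fold change of the 47 genes and was also uneven. It stood at 18820, 16640, 16360 and 20090 in controls and at 11120, 13840, 11490 and 19840 in the knockdown. Knockdown libraries 1 to 3 lay below all controls and library 4 lay near the highest control. The log2 fold change was -0.39 (SE 0.15, limma adjusted p = 0.19), and without knockdown library 4 it was -0.57 (limma adjusted p = 0.0185).

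In 7 of the 47 genes all knockdown libraries lay below all controls, where 5.95% of tested genes did. These were RPL5, RPL17, RPL23, RPL24, RPL26, RPL34 and RPL35A. All knockdown libraries lay above all controls in 0 of the 47 genes, and in 868 of the 15267 tested genes.

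**Figure D2:**
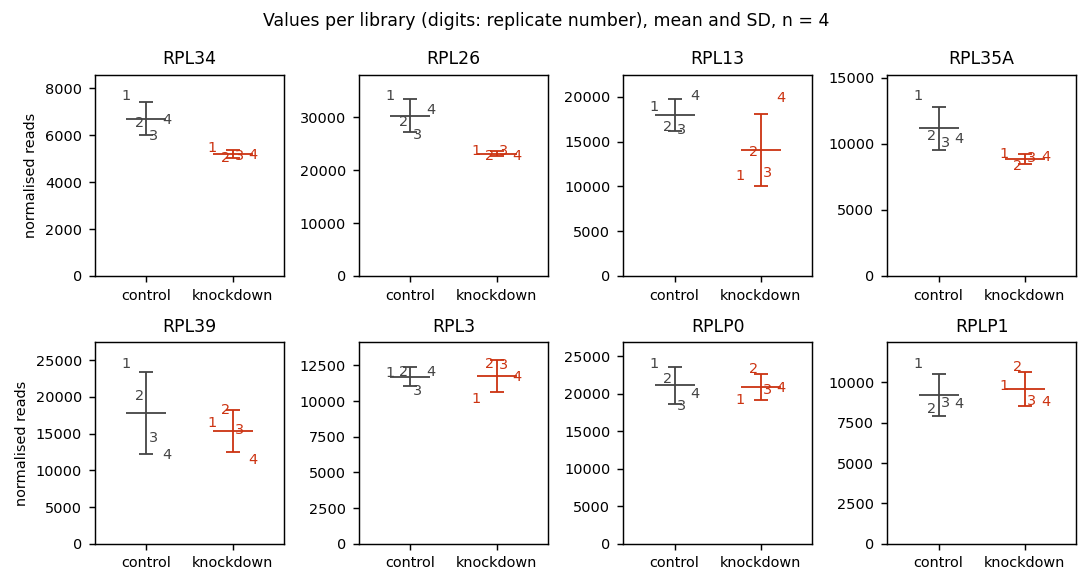
Normalised reads (y axis, from 0) of 8 genes in the control (grey) and knockdown (red) libraries; each digit is 1 library, named by its number, and bars give the mean and SD of n = 4. RPL34, RPL26 and RPL35A have groups that do not overlap, RPL13 has 1 knockdown library among the controls, and the groups of RPL39, RPL3, RPLP0 and RPLP1 overlap.

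The tunnel and its rim are formed in part by RPL4, RPL17, RPL19, RPL23A, RPL26, RPL31, RPL35 and RPL39. All 8 had a fold change below 0, with a median of -0.23, 3 lower at an unadjusted p under 0.05 (all genes 9.7%) and 0 called (all genes 0.976% lower). Among all 47 members 43 lay below 0, the median was -0.17, and 12 were lower at that unadjusted p. RPL17, whose loop narrows the tunnel, stood at 34560, 28930, 26450 and 28860 in controls and at 25580, 22870, 23780 and 23250 in the knockdown. The knockdown libraries lay below all controls, with a log2 fold change of -0.31 (SE 0.10, limma adjusted p = 0.14). Reads of RPL17 can also belong to the readthrough gene RPL17-C18orf32, so its assignment is uncertain.

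RPL4, which forms the same constriction from the other side, stood at 30320, 31570, 25660 and 28740 against 25590, 29460, 28780 and 27110. These groups overlapped throughout (log2 fold change -0.07, SE 0.10, limma adjusted p = 0.77). RPL23A, a rim protein at which the signal recognition particle docks, stood at 34790, 33070, 26320 and 27930 against 27070, 30070, 23880 and 23830, so control libraries 1 and 2 were high and the rest overlapped (log2 fold change -0.22, SE 0.12, limma adjusted p = 0.35).

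RPL39, a small protein that lines the tunnel, varied most between libraries, with a highest value 2.15 times its lowest. It stood at 24480, 20180, 14410 and 12040 in controls and at 16410, 18190, 15490 and 11410 in the knockdown, and libraries 1 and 2 of each group exceeded libraries 3 and 4. Its log2 fold change was -0.18 (SE 0.20, limma adjusted p = 0.67). RPL39L, the copy of RPL39 that is known for its expression in testis, was the lowest member in reads, which are not per length. It stood at 212, 209, 145 and 145 against 180, 210, 157 and 181 normalised reads, and its log2 fold change was 0.05 (SE 0.15, limma adjusted p = 0.89). The tunnel pair thus showed high libraries 1 and 2 in the controls and overlapping groups in both genes.

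The 5S particle, in which RPL5 and RPL11 bind the 5S ribosomal RNA, is known for holding the p53 regulator MDM2 when ribosome assembly fails. RPL5 stood at 17050, 14880, 14240 and 15210 in controls and at 13640, 13950, 14080 and 13380 in the knockdown. Its groups did not overlap, but knockdown library 3 and control library 3 came close together (log2 fold change -0.15, SE 0.08, limma adjusted p = 0.33). RPL11 stood at 20570, 19130, 15840 and 17550 against 16410, 16220, 15580 and 13780, with control library 3 inside the range of the knockdown (log2 fold change -0.23, SE 0.10, limma adjusted p = 0.22).

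The stalk that receives elongation factors consists of RPLP0, RPLP1 and RPLP2, with RPL12 at its base. Its 4 genes had a median log2 fold change of -0.05 and 0 reached an unadjusted p under 0.05 (all genes 19.2%). RPLP0, the anchor of the stalk, stood at 24000, 22030, 18440 and 20020 in controls and at 19120, 23340, 20460 and 20820 in the knockdown (log2 fold change -0.01, SE 0.10, limma adjusted p = 0.97). RPLP1 stood at 11140, 8356, 8706 and 8650 against 9749, 10970, 8814 and 8764 (log2 fold change 0.06, SE 0.11, limma adjusted p = 0.80). RPLP2, its partner in the stalk dimers, stood at 7945, 7214, 6700 and 6535 against 7084, 7432, 5938 and 6421 (log2 fold change -0.08, SE 0.09, limma adjusted p = 0.68). In all 3 stalk proteins the groups overlapped.

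Around the peptidyl transferase centre lie RPL3, RPL8 and RPL10, whose median log2 fold change was 0.0. RPL3 stood at 11990, 12070, 10710 and 12030 in controls and at 10150, 12610, 12530 and 11710 in the knockdown, with no separation of the groups (log2 fold change 0.00, SE 0.09, limma adjusted p = 0.99). RPL8 stood at 7549, 8313, 7522 and 8631 against 7361, 8738, 7540 and 9009, also overlapping (log2 fold change 0.03, SE 0.09, limma adjusted p = 0.90). RPL10, which joins the subunit last, had a log2 fold change of -0.06 (SE 0.10, limma adjusted p = 0.78). Unlike 41 of the 47 genes, RPL3 and RPL8 did not have their highest value in control library 1.

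The bridge proteins RPL23, RPL24 and RPL41, which contact the small subunit, all had lower means in the knockdown, with log2 fold changes of -0.30, -0.25 and -0.29. None passed the threshold, with limma adjusted p-values of 0.11, 0.15 and 0.29. The E-site protein RPL36A, which touches the departing tRNA, had a log2 fold change of -0.26 (SE 0.10, limma adjusted p = 0.17), and its reads can be shared with the readthrough gene RPL36A-HNRNPH2. As genes mutated in Diamond-Blackfan anaemia, an inherited failure of red cell production, 9 members were counted, a list that may not be complete. They were RPL5, RPL11, RPL15, RPL18, RPL26, RPL27, RPL31, RPL35 and RPL35A. All 9 had fold changes below 0 (median -0.23, range -0.38 to -0.15), 5 were lower at an unadjusted p under 0.05 (all genes 9.7%), and 0 were called (all genes 0.976% lower). Most of the 47 members lay below 0 too (43), and 12 of the 47 were lower at that unadjusted p.

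Of the genes outside these roles, RPL28, a protein that baker's yeast lacks, had the second-lowest mean and did not separate the groups. It stood at 1801, 2087, 1817 and 2049 in controls and at 1747, 2123, 1981 and 1900 in the knockdown, and the knockdown mean was 99.96% of control (SE of the log2 fold change 0.08, limma adjusted p = 1.0). RPL30 stood at 7475, 6992, 4987 and 5423 against 5285, 6296, 5509 and 4951, with control libraries 1 and 2 above all others (log2 fold change -0.16, SE 0.12, limma adjusted p = 0.51). RPL37A, a zinc-binding protein, stood at 36180, 33200, 24810 and 25000 against 26200, 30620, 24230 and 23810, again with control libraries 1 and 2 highest (log2 fold change -0.17, SE 0.14, limma adjusted p = 0.53). In both genes control libraries 3 and 4 lay within the range of the knockdown.

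**Figure D3:**
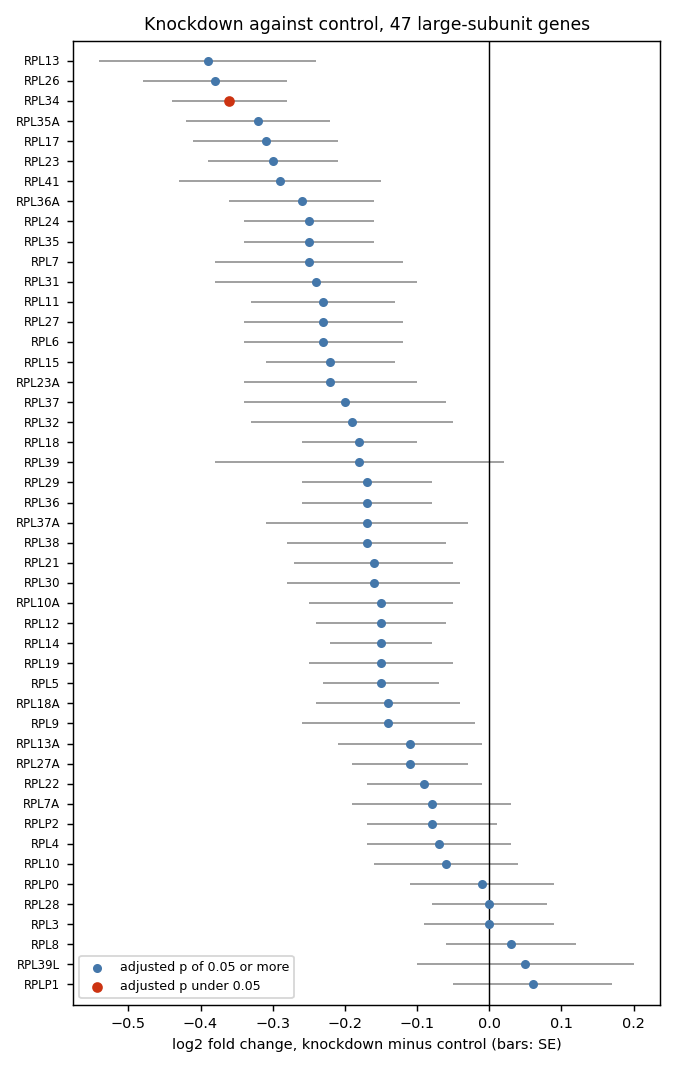
Log2 fold change (x axis, knockdown minus control, bars are SE, 4 libraries each) of the 47 large-subunit genes (y axis), with the 1 gene called at an adjusted p under 0.05 in red. The points run from -0.39 to 0.06, and 43 of 47 lie left of 0.

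Small-subunit genes were counted beside them, with no test of a difference between both lists. Of 32 tested, 29 had a fold change below 0, and the median was -0.18 with a range from -0.33 to 0.66. Their median deviation per library was 0.29, 0.20, -0.13 and -0.05 in controls and -0.06, 0.04, -0.11 and -0.22 in the knockdown, highest in control libraries 1 and 2. None was called lower (all genes 0.976%), and 1 was called higher (all genes 0.675%). RPS16, whose tail reaches the P-site tRNA, was the 1 gene called and rose, from 5657, 4415, 5406 and 5289 in controls to 9677, 10100, 7298 and 6320 in the knockdown (log2 fold change 0.66, SE 0.14, limma adjusted p = 0.031). No knockdown library overlapped a control.

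Other lists of the ribosome pathway differed in their medians. The 23 other TOP mRNAs, among them elongation factors and the poly(A)-binding protein, had a median of -0.05 with 14 below 0. Of these 23, 7 had an unadjusted p under 0.05 in either direction (all genes 19.2%), of which 6 were lower (all genes 9.7%). By limma 0 were called (all genes 1.65%). Of 60 factors that assemble the large subunit, 24 lay below 0, the median was 0.06, and 0 were called (all genes 1.65%). Among the 60, 15 had an unadjusted p under 0.05 (all genes 19.2%), of which 4 were lower (all genes 9.7%). The 49 genes of the mitochondrial large subunit had a median of -0.07, with 37 below 0. An unadjusted p under 0.05 was reached by 7 of them (all genes 19.2%), of which 6 were lower (all genes 9.7%). None of the 49 was called (all genes 1.65%).

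Pseudogenes and near-copies were counted apart. The table listed 104 RPL pseudogenes, of which 75 were tested, with a median of 0.04. Of the 75, 0 were called by limma (all genes 1.65%) and 0 had an unadjusted p under 0.05 (all genes 19.2%). No source used here says how reads that match both a gene and its processed copies were assigned, so part of the reads of any member may be uncertain. Just outside the rule, RPL26L1, a near-copy of RPL26, stood at 943, 829, 813 and 931 in controls and at 750, 718, 693 and 665 in the knockdown. Its groups did not overlap, as in RPL26 (log2 fold change -0.31, SE 0.08, limma adjusted p = 0.063). RPL22L1, RPL36AL and RPL7L1 had log2 fold changes of -0.18, -0.17 and 0.07, and none of them was called.

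The RIP libraries addressed which RNAs come down with hnRNPA1 in whole-cell lysate, cytosol and mitochondria. For each compartment 1 list of 500-base windows was deposited, with the authors' signal value, p-value and q-value for each window. No source used here gives the scale of the signal value, the background library or the genome build of the windows, and no replicate values were analysed. Listed coordinates overlapped the RefSeq span (GRCh38.p14) of the named gene for 58 of 60 whole-cell, 3 of 4 cytosolic and 8 of 8 mitochondrial member windows. The labels' protocols describe the RIP RNA as degraded and speak of 1 poor library without naming it.

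Most large-subunit genes had a window in whole-cell lysate and few had one in the fractions. The whole-cell list held 60 windows in 33 of the 47 genes (70.2%), against 39.2% of all tested genes. Longer and more abundant RNAs offer more reads, and among the 1393 tested genes whose mean was at least that of the second-lowest member the share was 79.9%. These genes were matched for neither length nor exact level, and the shares were not tested against each other. The small-subunit genes had windows in 16 of 32 (50.0%).

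The cytosolic list had windows in 4 genes (8.51%). The share was 5.17% in all tested genes and 12.1% in the 1393 genes with at least the mean of the second-lowest member. The mitochondrial list had windows in 8 members (17.0%), with 6.39% and 25.5% in the same 2 sets. Counted over the lists, 12 genes had no window, 26 had windows in 1 list, 8 in 2 lists, and RPL27A in all 3.

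**Figure D4:**
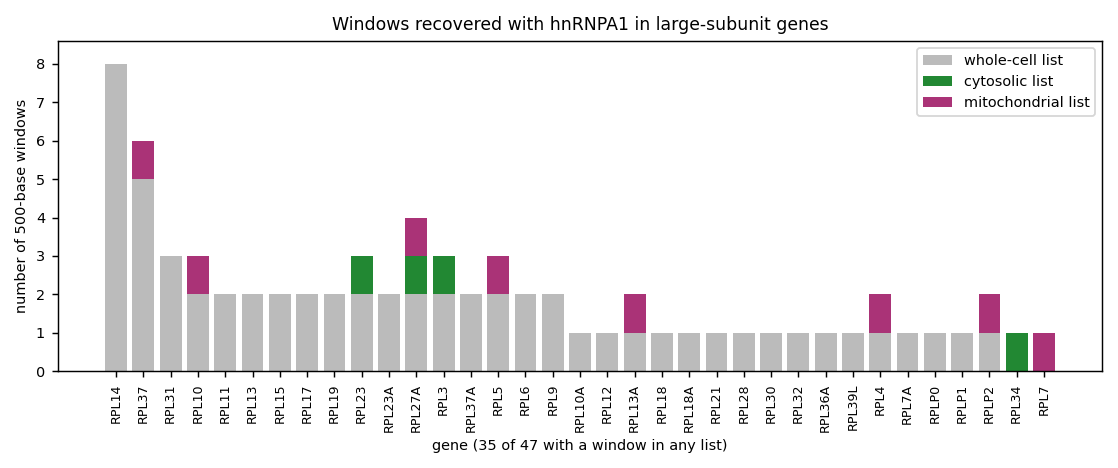
Number of 500-base windows (y axis) in each large-subunit gene with at least 1 window (x axis, 35 of 47), stacked by peak list; a stretch listed in more than 1 compartment counts once in each. RPL14 carries 8 whole-cell windows and RPL37 carries 5, most genes carry 1 or 2, and RPL34 and RPL7 appear without a whole-cell window.

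In whole-cell lysate 16 genes had 1 window and 14 had 2. RPL31 had 3, RPL37 had 5 and RPL14, which has no bacterial counterpart, had 8. The RPL14 windows covered 40462293 to 40464792 and 40465793 to 40467292 on chromosome 3 in runs of 5 and 3 touching windows, with signal values from 0.81 to 2.0. They lay 4954 bases and more downstream of the RefSeq start of the gene.

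The highest signal value of a member was 2.59 in RPLP1, in a window at chr15:69452815-69453314 that covered the start of the gene. RPL11 followed with 2.55 at chr1:23696243-23696742, then RPL23 with 2.29 at chr17:38853361-38853860, RPL14 with 2.0, and RPL39L with 1.92 at chr3:187138949-187139448. By signal value the RPLP1 window ranked 295 among the 13007 windows of the list, the RPL11 window 318 and the RPL23 window 556. The median signal value of the member windows was 1.27 and that of the list 1.22.

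A few windows of the fractions repeated those of whole-cell lysate. Over all genes, 6.45% of the cytosolic and 9.99% of the mitochondrial windows overlapped a whole-cell window, and of the member windows 1 of 4 and 2 of 8 did, a difference that was not tested. The cytosolic windows lay in RPL3, RPL23, RPL27A and RPL34. The RPL23 window was the 1 shared with the whole-cell list (1.67% of the whole-cell and 25.0% of the cytosolic member windows), with a signal value of 0.77 against 2.29. RPL34, the gene that fell in the knockdown, had its only window in the cytosolic list, at chr4:108623567-108624066 (signal value 1.27, q-value 0.01177). The cytosolic window named for RPL27A, at chr11:8700289-8700788, lay outside the RefSeq span of that gene, 17497 bases from its start.

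The mitochondrial windows lay in RPL4, RPL5, RPL7, RPL10, RPL13A, RPL27A, RPL37 and RPLP2. Of these, the windows of RPL10 (chrX:154399956-154400455) and RPLP2 (chr11:811966-812465) were shared with the whole-cell list, which is 3.33% of the whole-cell and 25.0% of the mitochondrial member windows. RPL10 had the highest signal value, 1.61, against 0.90 for the same stretch in whole-cell lysate, and RPLP2 had 1.43 against 1.5. In RPL5 and RPL27A the mitochondrial window touched whole-cell windows without overlapping them. The cytosolic and mitochondrial lists shared 0 member windows. Values of different lists are listed side by side only, since their normalisation is not known.

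Genes that host snoRNAs were set beside the rest. Of the 20 members with a snoRNA gene inside their RefSeq span 19 had a whole-cell window (95.0%), the exception being RPL39, and of the 27 others 14 had one (51.9%). Gene spans were of similar size, with a median of 5069 bases in hosts and 5057 in the others. Of the 31 whole-cell windows in host genes, 4 overlapped a snoRNA gene, in RPL4, RPL10, RPL23 and RPL27A. Of the 7 mitochondrial windows in host genes 1 did, in RPL10. The share that the lengths of windows, snoRNAs and genes alone would give was not worked out. The split by hosts was chosen with the lists in view and was not tested. Median log2 fold changes in the knockdown were -0.15 in hosts and -0.18 in the others, and -0.15 in genes with a whole-cell window and -0.24 in the 14 without.

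Windows in RPL pseudogenes had higher signal values than windows in the genes. In whole-cell lysate 39 pseudogenes had a window with a median signal value of 2.1, and 84.6% of these lay above the median of the list, where 53.3% of member windows did. The highest was 3.72 in RPL37P2. These 39 belonged to 24 parent genes, of which 17 had a window of their own. In the mitochondrial list 9 pseudogenes had windows (median 1.29, highest 2.68 in RPL26P19), and 6 of these windows also stood in the whole-cell list, 66.7% of the mitochondrial and 15.4% of the whole-cell pseudogene windows.

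The cytosolic list had 16 pseudogene windows with a median of 1.69, from 13 parent genes of which 0 had a cytosolic window. Of these 16, 14 belong to pseudogenes that the gene table does not list. Several carry values that recur throughout the list: RPL9P25, RPL21P60 and RPL15P12 have the signal value 1.69 and the q-value 0.01476, which 33 further windows share with each, and RPL36AP43 and RPL23AP50 have 1.51 and 0.03176, shared with 82 further windows. In each of these named windows the q-value equals the p-value. How many reads lay behind such windows is unknown, and whether reads of the parent mRNAs were placed on the copies was not tested.

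**Figure D5:**
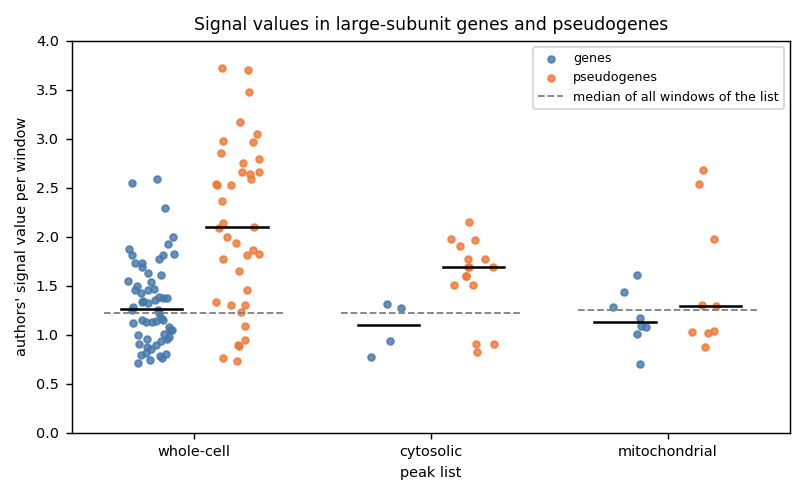
Authors' signal value (y axis, scale not given) of each window in large-subunit genes (blue) and RPL pseudogenes (orange) by peak list (x axis); black bars are medians and dashed lines the median of all windows of the list. Pseudogene windows reach 3.72 and gene windows 2.59 in the whole-cell list, and the 4 cytosolic gene windows lie at 1.31 or lower.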

How the data were processed

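The tools named in the submitters' processing notes are STAR 2.7.8a, Partek and DESeq2, with genome build hg38; their roles are not stated. The authors deposited a signal per gene and library, whose scaling is not stated. In each library 82.8% to 85.0% of values under 20 fell on multiples of a step, to within 0.02, and the rest did not, so no count test was run. Read totals estimated from that step assume 1 factor per library and are rough. For the RIP libraries, the authors deposited a signal score with a p-value and q-value per window, all q-values being under 0.05. Some q-values equal their p-values, as in the cytosolic window of RPL9P25 (both 0.01476). A q-value here can thus not be read as adjusted over the whole list. RIP depth is unknown.

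The 15267 genes that reached 10 normalised reads in 4 or more libraries were tested with limma 3.58.1 (R 4.3.3) on log2(value + 1), letting the variance follow the mean and with no replicate block. Benjamini-Hochberg adjustment ran over all of them. Fold changes understate those of low genes. The planned design named this test for normalised values. The code was tested on simulated data. Same-numbered control and knockdown libraries had correlations of deviations of 0.119, 0.292, 0.043 and 0.234, so the numbers were not taken as pairs.

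Windows were matched by gene ID and overlapped on the same strand by at least 1 base. The members, the gene lists and the roles were chosen with earlier results of these data known. Genes given with all libraries were members called, the 5 lowest and all 4 members above 0 by fold change, the 3 highest and 3 lowest by mean, the stalk and 5S genes and RPL39L; RPL39, RPS16 and RPL26L1 were given too. Alternatives changed the pseudocount, filter, scaling, trend, block, thresholds and libraries. Promoter sequences are RefSeq's, and figures were drawn with matplotlib 3.10.9.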

Additional observations from a re-analysis of the deposited data

Results flagged for a closer look

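In 4 of 94 groups of 4 libraries, 1 library stood far from the other 3, where chance gives about 1 in 20. RPL35A stood at 13620 normalised reads in control library 1, with the other controls at 10040 to 10630. RPLP1 stood at 11140 in the same library, with the others at 8356 to 8706. RPL3 stood at 10710 in control library 3, below the others at 11990 to 12070. RPL21 stood at 6784 in knockdown library 4, below the others at 8129 to 8347.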

How the results depend on the processing

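The limits lie in the libraries and the lists. The member call and most calls over all genes depended on single libraries, and the RIP lists allow no replicate check. Of 252 alternative values for 18 named genes, 219 kept their direction and their side of the threshold.

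All-gene calls went from 252 to 93 with mitochondrial genes left out, 48 without the trend, 48 at an adjusted p under 0.01, 71 with a fold of at least 1.5, and 61 to 254 with 1 library left out. They were 19 without control libraries 1 and 2 and 94 without knockdown libraries 3 and 4. Member calls went from 1 to 0 in these settings, except 0 to 1 with 1 library left out (RPL34 without control library 3, RPL13 without knockdown library 4). The members' median went from -0.17 to -0.23 to -0.09 with 1 library left out and to -0.02 without control libraries 1 and 2.

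With a replicate block in the fit, 1191 genes and 4 members (RPL13, RPL26, RPL34, RPL35A) were called, against 3.84% of all genes lower. Control libraries 1, 2 and 4 each correlated best with the knockdown library of their own number (0.119, 0.292 and 0.234). Their highest correlations with another number were 0.072, 0.082 and 0.002. Control library 3 correlated best with knockdown library 4 (0.247), not with its own number (0.043).

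Directions turned only in genes near 0. RPL3 turned to -0.01 with libraries centred on their median. With 1 library left out, log2 fold changes ran from -0.05 to 0.05 in RPL28, -0.04 to 0.07 in RPL3, -0.04 to 0.14 in RPL39L, -0.02 to 0.07 in RPL8, -0.07 to 0.05 in RPLP0 and -0.01 to 0.15 in RPLP1. The cause was not tested.

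Cytosolic members with a window went from 4 to 2 at a q of at most 0.005 and to 2 above the median signal value, where tested genes went from 789 to 350 and 365. Mitochondrial members went from 8 to 6 at that q and to 3 above the median signal value. Tested genes in the mitochondrial list went from 976 to 596 at that q and 548 above the median.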
